A study of Mus musculus with 5 samples.

Results

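The genes described here carry glucose, amino acids and lactate across cell membranes. They were taken as the protein-coding rows of the counts table whose mouse symbol begins with Slc1a, Slc2a, Slc3a, Slc7a, Slc16a or Slc38a, which gave 56 members among 30046 features, of which 17092 were protein-coding genes or reporter sequences. *Slc7a6os* entered by this spelling although it is only the neighbour of *Slc7a6* on the other strand and is not itself a carrier. The study asked how 2 fetal cell populations of the femur, Dlx5+ cells of the perichondrium and Fgfr3+ chondrocytes, contribute to the Cxcl12-abundant reticular (CAR) stroma of the marrow. The Dlx5 group had 3 libraries (replicates 1, 2 and 3) from Cxcl12(GFP/+), Dlx5(CreER/+), R26R(tdTomato/+) mice, and the Fgfr3 group had 2 (replicates 2 and 3) from Cxcl12(GFP/+), Fgfr3-iCreER, R26R(tdTomato/+) mice. All mice received tamoxifen once at E12.5 and were taken at postnatal day 21. Cells with high GFP that were also positive for tdTomato were then sorted from digested femur shafts. Every group thus carried 1 Cxcl12 allele replaced by GFP and the R26R reporter, the Fgfr3 driver was a transgene whereas the Dlx5 driver sat in the gene itself, and cells of littermates were pooled by genotype before sorting. The study's methods say that the groups were read on different sequencers, with paired longer reads for Dlx5 and single shorter reads for Fgfr3, while the design text deposited with the series names a single sequencer; if the methods hold, instrument and read length cannot be told apart from lineage.

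Nutrients that cannot cross a lipid membrane enter cells through solute carriers. Slc2a proteins (the GLUT family) let glucose and related sugars move down their gradient. Slc1a proteins couple glutamate or small neutral amino acids to sodium, Slc38a proteins (the SNAT family) take up glutamine and other neutral amino acids with sodium, and Slc7a proteins exchange cationic or large neutral amino acids. Many Slc7a carriers are light chains that reach the cell surface only when joined to the heavy chain *Slc3a2*, also called CD98. Slc16a proteins (the MCT family) include proton-coupled carriers of lactate and pyruvate and also carriers of aromatic amino acids. Osteoblast-lineage cells are known to draw on both glucose and glutamine while they build matrix.

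Total counts ran from 22035650 to 32563758 in the Dlx5 libraries and were 56355203 and 58166285 in the Fgfr3 libraries, so that 3 counts, taken as the smallest detectable amount, stood for 0.0516 to 0.136 CPM (counts scaled to a common library size); this covers counting error only, since reads carried no molecular identifiers. The cre sequence, part of the Dlx5 driver, measured 13.6 to 21.99 CPM in Dlx5 libraries and 1 count in each Fgfr3 library. Summed CPM of 6 CAR stroma markers was 27400 to 28500 in the Dlx5 libraries and 10800 and 7260 in Fgfr3 replicates 2 and 3, with 4 of the 6 called higher in Dlx5 and 1 higher in Fgfr3, so the markers were present in every library. In bulk RNA, fewer cells of a type and less RNA per cell cannot be told apart. Levels below are CPM after TMM scaling, and log2 fold changes are Fgfr3 over Dlx5.

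Of the 56 members, 30 reached 10 CPM in at least 2 libraries and were tested. By edgeR's quasi-likelihood test, calling genes with an adjusted p under 0.05 that also differed by more than 1 on the log2 scale, 9 tested members were higher in Dlx5 cells and 7 were higher in Fgfr3 cells, while 14 were not called. Over all 10088 genes tested, 13.1% were called higher in Dlx5 and 16.4% higher in Fgfr3, or 29.5% in either direction, against 30% and 23.3% of the tested members, or 53.3% in all. The median absolute log2 fold change was 1.03 for tested members and 0.54 for all tested genes, and the signed medians were -0.17 and 0.01. The 2 groups did not overlap in 23 of the 30 tested members, against 68.9% of all tested genes. Of the 137 other solute carrier genes tested, 29 were called (21.2%), 10 higher in Dlx5 and 19 higher in Fgfr3, with a median absolute log2 fold change of 0.43. These shares describe the list and no test of it was made. The filter itself favours genes that differ: 5 tested members reached 10 CPM in both Fgfr3 libraries and in fewer than 2 Dlx5 libraries, and 5 others did so only in Dlx5 libraries.

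**Figure D1:**
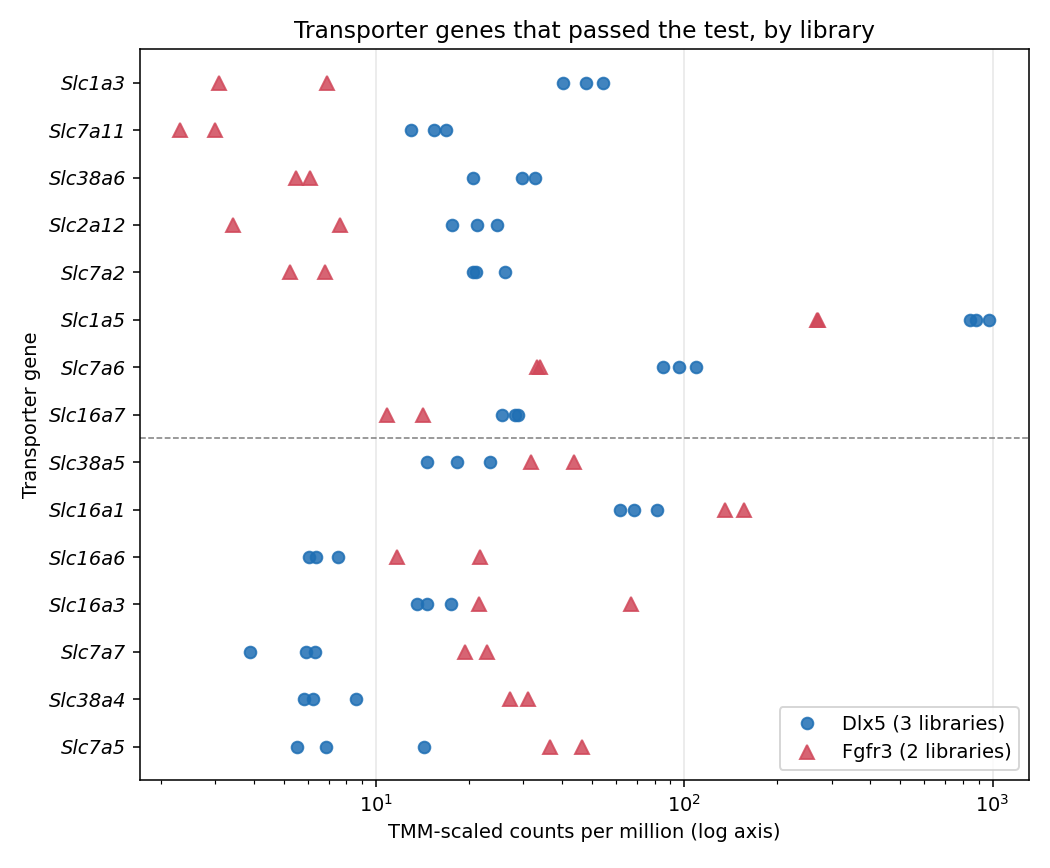
Each point is 1 library's level (TMM-scaled CPM, log axis) for 15 of the members that passed the test, with circles for the 3 Dlx5 libraries and triangles for the 2 Fgfr3 libraries; the 8 genes above the dashed line were higher in Dlx5 and the 7 below it were higher in Fgfr3. The libraries of the groups do not overlap for any of the 15, which the call itself favours. Of all tested genes, 68.9% did not overlap. The 2 Fgfr3 triangles of Slc16a3 stand farthest apart, at 21.5 and 66.9 CPM.

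Among carriers of acidic and small neutral amino acids, the Slc1a family held less transcript in Fgfr3 cells. *Slc1a5* (ASCT2; chr7:16781340-16798274, + strand, GRCm38), the sodium-dependent exchanger through which many proliferating cells import glutamine, was the most abundant member in Dlx5 cells per length of exon. It measured 847, 885 and 970 CPM in Dlx5 replicates 1 to 3 and 271 and 270 CPM in Fgfr3 replicates 2 and 3. All Dlx5 libraries thus stood more than 3-fold above both Fgfr3 libraries, and the fitted level was 3.33-fold lower in Fgfr3 (log2 fold change -1.74 ± 0.154 SE, adjusted p = 0.000232). *Slc1a3* (EAAT1, also called GLAST; chr15:8634124-8710764, - strand), an importer of glutamate and aspartate, had the largest fold change of the tested members, with 40.4, 47.8 and 54.5 CPM in Dlx5 libraries against 6.91 and 3.09 CPM in Fgfr3 libraries (log2 fold change -3.25 ± 0.376, adjusted p = 0.000639). *Slc1a4* (ASCT1), which exchanges alanine, serine and cysteine, did not follow them, at 20.1, 31.0 and 29.0 CPM in Dlx5 and 32.9 and 31.4 CPM in Fgfr3 (log2 fold change 0.27 ± 0.216, adjusted p = 0.338). Within a library, per kb of exon, *Slc1a5* transcript was 26.9 to 39.7 times that of *Slc1a4* in Dlx5 cells and 7.76 and 8.08 times in Fgfr3 cells, so the balance of these related exchangers differed without overlap. *Slc1a1* (EAAT3), another glutamate importer, stayed under the filter with 0.881 to 1.98 CPM in Dlx5 libraries and 1.46 and 1.58 CPM in Fgfr3 libraries. Summed over its 6 genes, the Slc1a family gave 213 to 247 CPM per kb in Dlx5 cells and 74.5 and 73.3 in Fgfr3 cells, and *Slc1a5* alone made up 93.8% to 95.3% of the former and 87.2% and 88.2% of the latter.

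The carriers built on the CD98 heavy chain differed in which light chain was most abundant. *Slc3a2* itself measured 411, 362 and 457 CPM in Dlx5 libraries and 230 and 243 CPM in Fgfr3 libraries. The groups did not overlap, and the difference passed the adjusted p threshold but not the fold threshold (log2 fold change -0.79 ± 0.158, adjusted p = 0.00599). *Slc7a5* (LAT1; chr8:121881150-121907694, - strand), the light chain that imports leucine and other large neutral amino acids, was higher in Fgfr3 cells, with 5.51, 6.88 and 14.3 CPM in Dlx5 and 36.5 and 46.4 CPM in Fgfr3 (log2 fold change 2.22 ± 0.396, adjusted p = 0.00378). Dlx5 replicate 3 was the highest of its group and still lay below both Fgfr3 libraries. The y+L carriers, which exchange cationic for neutral amino acids, went in opposite directions. *Slc7a6* (y+LAT2) measured 85.01, 96.0 and 109 CPM in Dlx5 against 33.3 and 34.1 CPM in Fgfr3 (log2 fold change -1.52 ± 0.159, adjusted p = 0.000431). Its relative *Slc7a7* (y+LAT1), best known from absorptive epithelia and macrophages, measured 3.88, 5.93 and 6.32 CPM in Dlx5 and 19.4 and 22.8 CPM in Fgfr3 (log2 fold change 1.98 ± 0.273, adjusted p = 0.00132); 7.0% of its exon sequence lies opposite *Oxa1l*. *Slc7a11* (xCT), which imports cystine in exchange for glutamate and so feeds glutathione synthesis, measured 16.9, 15.4 and 12.9 CPM in Dlx5 and 2.31 and 3.00 CPM in Fgfr3 (log2 fold change -2.50 ± 0.276, adjusted p = 0.000532). *Slc7a8* (LAT2) was under the filter and its groups overlapped, at 3.58 to 7.57 CPM in Dlx5 and 7.10 and 9.20 CPM in Fgfr3.

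Added together, the 6 light chains that pair with *Slc3a2* (*Slc7a5*, *Slc7a6*, *Slc7a7*, *Slc7a8*, *Slc7a10* and *Slc7a11*) gave 24.0, 27.3 and 31.4 CPM per kb of exon in Dlx5 libraries and 25.1 and 29.1 in Fgfr3 libraries, so the sums overlapped. Their composition did not overlap for the 3 main chains. *Slc7a6* made up 76.2% to 77.6% of the sum in Dlx5 cells and 29.1% and 25.6% in Fgfr3 cells. *Slc7a5* took 6.2% to 12.3% in Dlx5 and 39.2% and 43.0% in Fgfr3, and *Slc7a7* took 4.88% to 6.56% in Dlx5 and 23.4% and 23.6% in Fgfr3. *Slc7a11* made up 2.96% to 5.05% in Dlx5 cells and 0.661% and 0.739% in Fgfr3 cells. The light chain sum equalled 20.6% to 26.6% of the heavy chain in Dlx5 libraries and 38.5% and 42.3% in Fgfr3 libraries. Shares of transcript are not shares of protein at the membrane.

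**Figure D2:**
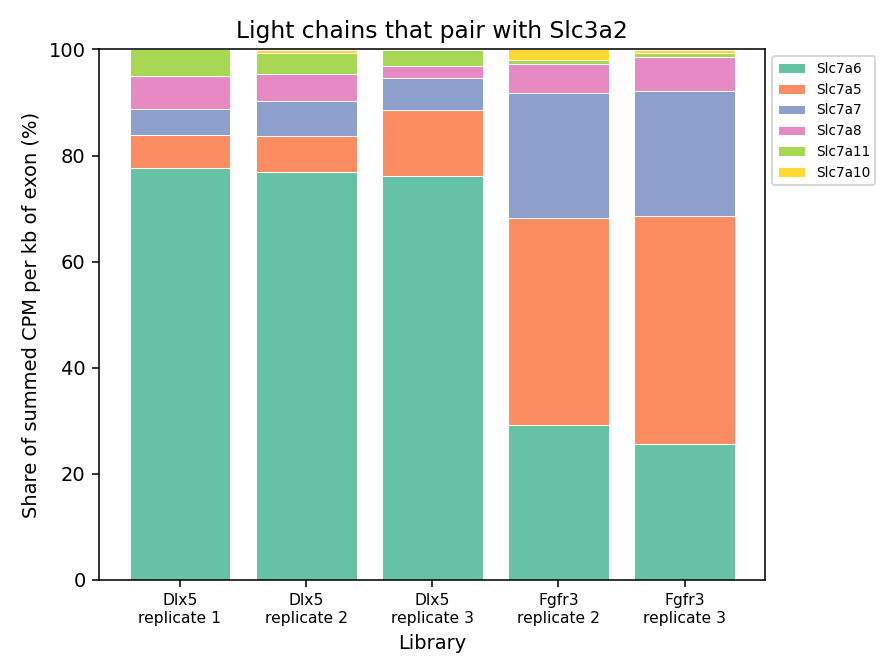
Stacked bars give the share of summed CPM per kb of exon (%) in each of the 5 libraries for the 6 light chains that pair with Slc3a2. Slc7a6 holds 76.2% to 77.6% of the bars in Dlx5 and 25.6% and 29.1% in Fgfr3, where Slc7a5 holds 43.0% and 39.2%.

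Of the cationic amino acid carriers that need no heavy chain, *Slc7a2* (CAT-2), which imports arginine and lysine, was higher in Dlx5 cells, with 20.6, 21.0 and 26.1 CPM against 6.81 and 5.24 CPM in Fgfr3 (log2 fold change -1.91 ± 0.240, adjusted p = 0.000913). *Slc7a1* (CAT-1), the more widely expressed arginine importer, lay on the other side without passing the test, at 4.76, 8.24 and 7.92 CPM in Dlx5 and 13.1 and 11.8 CPM in Fgfr3 (log2 fold change 0.84 ± 0.297, adjusted p = 0.0529). Its groups did not overlap, and it was called when libraries were scaled by total counts alone (log2 fold change 1.05) or after a trend on transcript length was removed (1.28). *Slc7a4* was under the filter, at 3.26 to 4.14 CPM in Dlx5 and 6.84 and 6.33 CPM in Fgfr3.

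Of 11 Slc2a genes, which carry glucose and other sugars, 5 were tested, and only *Slc2a12* (GLUT12; chr10:22645011-22704285, + strand) was called, with 17.7, 21.2 and 24.6 CPM in Dlx5 and 7.61 and 3.44 CPM in Fgfr3 (log2 fold change -1.94 ± 0.377, adjusted p = 0.00555). Of its exon sequence 9.6% lies opposite *Tbpl1*, whose reads cannot be separated from it unless strand was used in counting. *Slc2a1* (GLUT1), the basal glucose carrier of most cells, measured 90.5, 68.6 and 96.9 CPM in Dlx5 and 57.5 and 45.1 CPM in Fgfr3, which passed the adjusted p threshold but not the fold threshold (log2 fold change -0.73 ± 0.200, adjusted p = 0.0209). *Slc2a3* (GLUT3), a high-affinity carrier abundant in neurons and leukocytes, was at 85.2, 100 and 130 CPM in Dlx5 and at 58.4 and 152 CPM in Fgfr3, the Fgfr3 libraries lying on either side of the Dlx5 range (log2 fold change 0.004 ± 0.384, adjusted p = 0.994). Without Fgfr3 replicate 3 its log2 fold change was -0.79, or -0.85 when the genes tested with all libraries were kept. *Slc2a8* (45.2 to 57.6 CPM over the 5 libraries) and *Slc2a10* (39.2 to 48.3 CPM) overlapped between groups. *Slc2a4* (GLUT4), the insulin-responsive carrier, had 9.33, 6.59 and 11.3 CPM in Dlx5 and 5.72 and 4.21 CPM in Fgfr3 and was tested only in the fit with a CPM minimum of 1, where it was not called (log2 fold change -0.89, adjusted p = 0.0656). Summed over the 11 genes, the family gave 74.9, 72.0 and 86.7 CPM per kb in Dlx5 libraries and 56.1 and 69.4 in Fgfr3 libraries. The nearest libraries, at 72.0 and 69.4, lay close, and the sum was taken with TMM scaling only, so their order may depend on the scaling.

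In the Slc16a family 3 genes were called higher in Fgfr3. *Slc16a1* (MCT1; chr3:104638668-104658462, + strand), the widespread carrier of lactate, pyruvate and ketone bodies, measured 81.6, 61.6 and 68.7 CPM in Dlx5 and 156 and 135 CPM in Fgfr3 (log2 fold change 1.04 ± 0.160, adjusted p = 0.00205). *Slc16a1* lay just above the fold threshold, and its call was lost without Dlx5 replicate 2 (0.95). Among the genes tested with all libraries, it was lost without Fgfr3 replicate 2 (0.94). Removing a trend on transcript length (0.97) or testing against a 2-fold change also removed the call. *Slc16a3* (MCT4), the lactate exporter of glycolytic cells, measured 13.5, 17.5 and 14.6 CPM in Dlx5 and 21.5 and 66.9 CPM in Fgfr3 (log2 fold change 1.54 ± 0.427, adjusted p = 0.0221). That call rested on Fgfr3 replicate 3: without it the log2 fold change was 0.56, or 0.50 among the genes tested with all libraries, and it was also lost without Dlx5 replicate 1 (1.46) or Dlx5 replicate 3 (1.51) and with the replicate number as a block (1.25). *Slc16a7* (MCT2), a high-affinity lactate and pyruvate carrier, went the other way, with 25.7, 28.8 and 28.3 CPM in Dlx5 and 14.1 and 10.9 CPM in Fgfr3 (log2 fold change -1.14 ± 0.197, adjusted p = 0.00333). Removing a trend on transcript length took *Slc16a7* to -0.34, and leaving out Fgfr3 replicate 3 took it to -0.90. Scaling by total counts alone took it to -0.93.

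*Slc16a6* (MCT7), a ketone body carrier, had 6.39, 7.49 and 6.05 CPM in Dlx5 and 11.7 and 21.7 CPM in Fgfr3 (log2 fold change 1.33 ± 0.309, adjusted p = 0.0112). Of its exon sequence 23.5% overlaps *Amz2*, *Arsg* or *Gm25540*, so its counts are uncertain, and without Fgfr3 replicate 3 its log2 fold change was 0.81 and no longer called among the genes tested with all libraries. *Slc16a10* (TAT1), a carrier of aromatic amino acids, was not called at 16.7, 12.2 and 25.2 CPM in Dlx5 and 9.05 and 11.03 CPM in Fgfr3 (log2 fold change -0.84 ± 0.333, adjusted p = 0.0742). The ratio of *Slc16a3* to *Slc16a7* per kb was 1.15 to 1.35 in Dlx5 and 3.39 and 13.7 in Fgfr3.

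Of the 8 Slc38a genes tested, 3 were called. *Slc38a6* (SNAT6), a little-studied carrier, measured 20.5, 32.7 and 29.8 CPM in Dlx5 and 5.49 and 6.07 CPM in Fgfr3 (log2 fold change -2.26 ± 0.266, adjusted p = 0.000689), and 35.5% of its 50-base windows also occur in transcripts of other genes, *Noct* among them, so its counts are uncertain. *Slc38a4* (SNAT4; chr15:96994820-97055956, - strand), a neutral amino acid carrier best known from liver and placenta, was higher in Fgfr3 cells, at 31.2 and 27.1 CPM against 5.81, 8.57 and 6.24 CPM in Dlx5 (log2 fold change 2.09 ± 0.236, adjusted p = 0.000583). *Slc38a5* (SNAT5; chrX:8271133-8280179, + strand), which moves glutamine in either direction, measured 23.3, 14.6 and 18.3 CPM in Dlx5 and 31.8 and 43.8 CPM in Fgfr3 (log2 fold change 1.01 ± 0.246, adjusted p = 0.0134). *Slc38a5* sat on the fold threshold, and leaving out single libraries gave log2 fold changes of 0.76 to 1.30. Its call was lost without Dlx5 replicate 2, Dlx5 replicate 3 or Fgfr3 replicate 3. Processing choices also removed it: a CPM minimum of 1 (0.99) and removal of a trend on GC content (0.98) or transcript length (0.88). The same held for a test against a 2-fold change.

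*Slc38a4* lies beside *Slc38a1* (chr15:96571418-96642913) and *Slc38a2* (chr15:96687392-96699730), and the 3 neighbours did not share a pattern. *Slc38a2* (SNAT2), the neutral amino acid carrier induced by amino acid shortage, was at 561, 535 and 672 CPM in Dlx5 and 524 and 341 CPM in Fgfr3 (log2 fold change -0.45 ± 0.222, adjusted p = 0.139). *Slc38a1* (SNAT1) was at 21.1, 11.7 and 10.8 CPM in Dlx5 and 13.5 and 19.5 CPM in Fgfr3, with overlapping groups (log2 fold change 0.18 ± 0.345, adjusted p = 0.693). *Slc38a9*, the lysosomal arginine sensor upstream of mTORC1, was at 21.6, 24.6 and 23.7 CPM in Dlx5 and 26.5 and 19.4 CPM in Fgfr3 (log2 fold change -0.02 ± 0.197, adjusted p = 0.936). *Slc38a7* and *Slc38a10* also overlapped between groups. The directions of *Slc38a1*, *Slc38a9* and *Slc2a3* turned under some alternatives, and nothing rests on them.

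**Figure D3:**
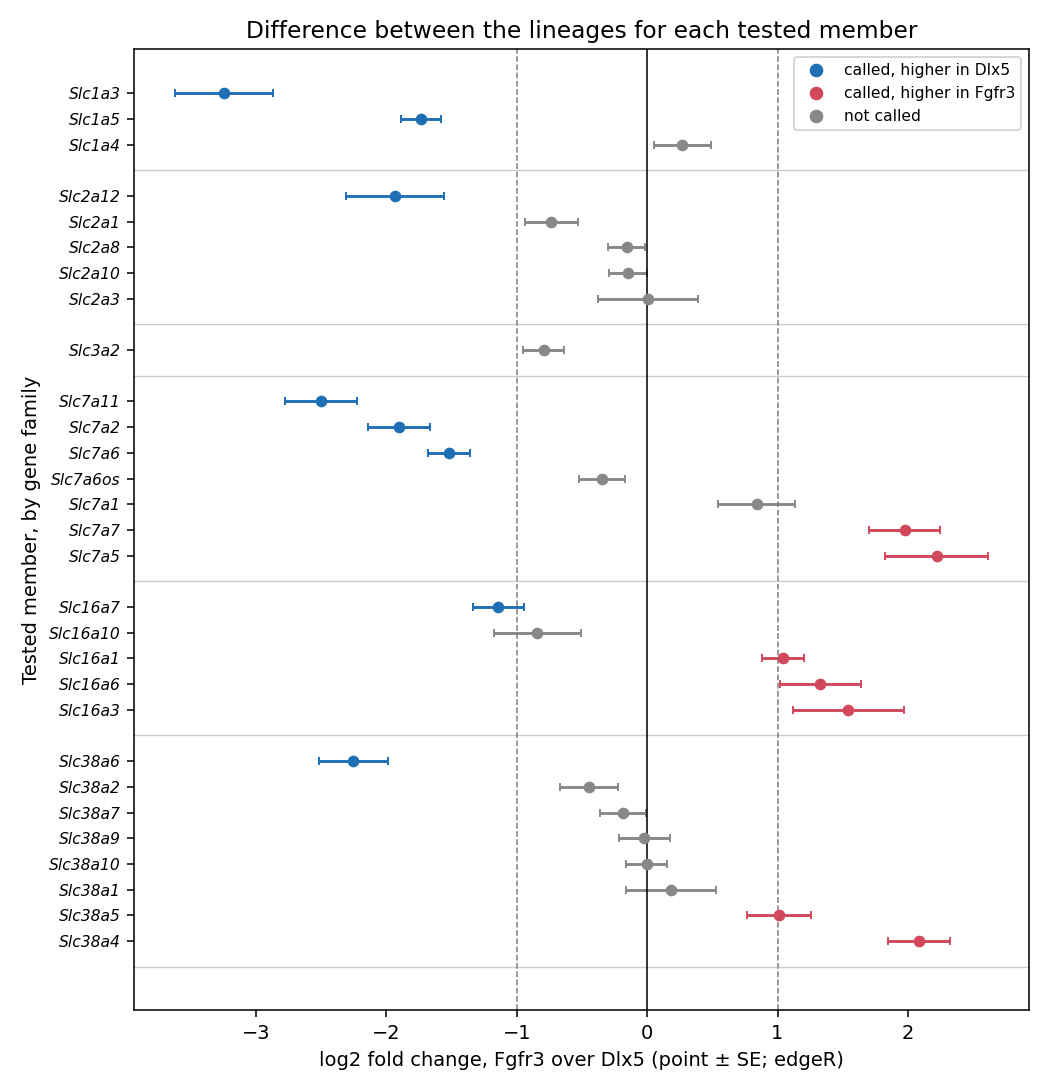
Each point is the log2 fold change (Fgfr3 over Dlx5, edgeR) of 1 of 29 tested members and its bar is ± SE, sorted within family; dashed lines mark the fold threshold of 1 on the log2 scale in each direction. Slc7a, Slc16a and Slc38a hold called genes on both sides of 0, from -2.50 for Slc7a11 to 2.22 for Slc7a5, while the called Slc1a and Slc2a genes all lie to the left.

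In order of level per kb of exon, *Slc1a5* (216 in Dlx5, 64.8 in Fgfr3), *Slc3a2* (116 and 67.0), *Slc38a2* (66.7 and 49.0) and *Slc38a10* (40.8 and 40.7 CPM per kb) held the first 4 places in both groups. *Slc1a5* stood clear of *Slc3a2* in Dlx5 cells, while in Fgfr3 cells these neighbours were close, the mean of *Slc3a2* being the higher. *Slc7a6* moved from rank 7 to rank 15 and *Slc1a3* from rank 16 to rank 35. *Slc16a1* moved from rank 9 to rank 5, *Slc38a5* from rank 13 to rank 6 and *Slc7a5* from rank 23 to rank 11.

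The 26 members that were not tested had little transcript. With a CPM minimum of 1, 8 of them entered the fit (*Slc1a1*, *Slc2a4*, *Slc2a6*, *Slc2a9*, *Slc2a13*, *Slc7a4*, *Slc7a8* and *Slc16a4*), in which 29.5% of 13225 genes were called. *Slc2a6*, a lysosomal member of the GLUT family, was the 1 called, at 1.27, 1.98 and 2.63 CPM in Dlx5 and 2.71 and 12.8 CPM in Fgfr3 (log2 fold change 1.96, adjusted p = 0.0468), with nearly all of the excess in Fgfr3 replicate 3. The other 18 members never exceeded 1.58 CPM in any library.

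Short stretches of promoter are shown for 4 called members whose RefSeq promoter holds letters that known stress and growth regulators read. The table of promoters (GRCm38.p6) held 42 of the 56 members and 10 of the 16 called. Each stretch is 60 bases, on the gene's own strand, with the matched letters in capitals, and positions count back from the base before the transcription start. The C/EBP-ATF response element was searched as TGATGNAA, the hypoxia response element core as ACGTG, the E-box as CACGTG, which contains the core, and the antioxidant response element as TGACNNNGC, all on both strands of the 250 bases before each start. In the *Slc7a11* promoter the C/EBP-ATF element occurs at -66 to -59 and, on the other strand, at -47 to -40.
Slc7a11 (chr3:50443644-50443703, - strand): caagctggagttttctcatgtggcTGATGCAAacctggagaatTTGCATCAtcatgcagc
Slc16a3 (chr11:120949007-120949066, + strand): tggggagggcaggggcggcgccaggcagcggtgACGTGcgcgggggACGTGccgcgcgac
Slc16a1 (chr3:104638434-104638493, + strand): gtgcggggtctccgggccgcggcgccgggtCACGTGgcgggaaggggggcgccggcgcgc
Slc38a5 (chrX:8271321-8271380, + strand): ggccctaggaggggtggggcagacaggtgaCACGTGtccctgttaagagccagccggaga

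*Slc16a3* carries the hypoxia core at -27 and at -14, *Slc16a1* an E-box at -200 and *Slc38a5* an E-box at -30. The stretch of *Slc16a1* also holds the antioxidant letters at -207 to -199, on the other strand. They overlap its E-box and are otherwise in lower case. Over all 32851 promoters of the table, 3.45% held the C/EBP-ATF letters, 16.6% the hypoxia core, 6.02% the E-box and 10.2% the antioxidant letters. The 22 tested members in the table had 30 promoters. Of these promoters, 3 held the C/EBP-ATF letters, 9 the hypoxia core, 3 the E-box and 4 the antioxidant letters. By member, the counts were 2 (*Slc7a11* and *Slc7a7*), 8, 3 and 4 (*Slc7a1*, *Slc7a6*, *Slc16a1* and *Slc38a2*). The C/EBP-ATF pair, *Slc7a11* and *Slc7a7*, went in opposite directions, and the 4 members with the antioxidant letters were called higher in Dlx5 (*Slc7a6*), higher in Fgfr3 (*Slc16a1*) or not called. A match describes these letters and is not evidence of binding.

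Genes that work with the carriers were read from 4 lists, with 65 genes tested, of which 11 were called higher in Dlx5 and 12 higher in Fgfr3. These were 16.9% and 18.5%, or 35.4% in either direction, near the 13.1%, 16.4% and 29.5% of all tested genes. No test of the lists was made. Of 11 chaperones and regulators of the carriers, *Tbc1d4* (log2 fold change -1.17 ± 0.244, adjusted p = 0.00716), which holds GLUT4 inside unstimulated cells, and *Emb* (-1.03 ± 0.231, adjusted p = 0.0098), a chaperone of MCT proteins, were higher in Dlx5, and *Tbc1d1* (1.31 ± 0.265, adjusted p = 0.0064), the relative of *Tbc1d4*, was higher in Fgfr3. *Bsg*, the chaperone that brings MCT1 and MCT4 to the surface, was not called, at 680 to 737 CPM in Dlx5 and 537 and 666 CPM in Fgfr3.

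Among 25 enzymes that use the carried substrates, 2 were higher in Dlx5 (8%) and 7 higher in Fgfr3 (28%), against 13.1% and 16.4% of all tested genes. *Glul*, glutamine synthetase, measured 206, 286 and 325 CPM in Dlx5 and 62.1 and 50.5 CPM in Fgfr3 (log2 fold change -2.27 ± 0.236, adjusted p = 0.00042), the same direction as the glutamate importer *Slc1a3* whose substrate it consumes. *Hk2*, the inducible hexokinase, was also higher in Dlx5 (-1.26 ± 0.205). Those higher in Fgfr3 included both subunits of the enzyme that starts glutathione synthesis, *Gclc* (12.8, 8.15 and 11.5 CPM in Dlx5, 64.9 and 90.9 CPM in Fgfr3, log2 fold change 2.85 ± 0.242) and *Gclm* (2.70 ± 0.325), the opposite direction to the cystine importer *Slc7a11*. The others named by size were *Odc1*, which starts polyamine synthesis (2.80 ± 0.154), *Hk3*, a hexokinase of leukocytes (2.73 ± 0.333), and *Shmt1*, a serine and glycine enzyme (1.78 ± 0.340), all with an adjusted p under the threshold. *Ldha*, which makes lactate from pyruvate, was not called, at 518 to 598 CPM in Dlx5 and 670 and 696 CPM in Fgfr3.

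In the list for amino acid sensing and the amino acid response, 16 genes were tested. Of these, 6 were higher in Dlx5 (37.5%) and 2 higher in Fgfr3 (12.5%), against 13.1% and 16.4% of all tested genes. The 5 largest on the Dlx5 side were *Atf5* (log2 fold change -3.01 ± 0.245), a transcription factor of the stress response, *Ddit4* (-2.13 ± 0.291), an inhibitor of mTORC1, *Rraga* (-1.25 ± 0.132), a GTPase that signals amino acids to mTORC1, *Ddit3* (-1.23 ± 0.258), a stress response transcription factor, and *Sesn2* (-1.16 ± 0.150), a leucine sensor. *Atf4*, the central factor of this response, measured 244, 240 and 289 CPM in Dlx5 and 171 and 166 CPM in Fgfr3, past the adjusted p threshold but not the fold threshold (-0.61 ± 0.146, adjusted p = 0.0126). On the Fgfr3 side, *Rragc*, a partner of *Rraga*, had 10.9, 15.5 and 13.1 CPM in Dlx5 and 136 and 137 CPM in Fgfr3 (3.38 ± 0.178). *Cebpb*, a stress response factor, had 2.25, 4.33 and 5.89 CPM in Dlx5 and 796 and 845 CPM in Fgfr3 (7.63 ± 0.399), a gap far beyond any other in these lists. Its exons are 67.2% G and C, and 20.7% of them lie opposite *Tmem189*; the part of either in the gap was not tested. Of 13 tested genes from other families with the same substrates, the taurine carrier *Slc6a6* was higher in Dlx5 (-2.78 ± 0.217) and the mitochondrial aspartate-glutamate carriers *Slc25a13* (1.30 ± 0.207) and *Slc25a12* (1.18 ± 0.206) were higher in Fgfr3.

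Summed markers of several other cell types differed between the lineages without overlap, while the erythroid, endothelial and mural sums overlapped. All 15 pan-leukocyte markers were called higher in Fgfr3, with summed CPM of 583 to 714 in Dlx5 and 1820 and 3840 in Fgfr3 replicates 2 and 3, and so were all 11 neutrophil markers, at 2500 to 3110 against 6980 and 17200. Macrophage markers summed to 66.5 to 103 CPM in Dlx5 and 168 and 232 in Fgfr3, with 5 of the 6 tested, out of 8, called. The untested *Mrc1* ran the other way, at 7.28 to 12.2 CPM in Dlx5 and 6.03 and 3.42 CPM in Fgfr3. Chondrocyte markers summed to 8.11 to 12.0 CPM in Dlx5 and 2970 and 378 in Fgfr3, with both tested genes of 7 called and *Col9a1* at 0 in all Dlx5 libraries. Osteoblast markers summed to 3730 to 5270 CPM in Dlx5 and 7230 and 9700 in Fgfr3, with 4 of 7 called. Osteoclast markers summed to 189 to 195 CPM in Dlx5 and 248 in each Fgfr3 library, with *Calcr*, *Dcstamp* and *Ocstamp* at 0 in Dlx5. Of the 2 tested osteoclast genes, 1 was called higher in Fgfr3 and 1 lay higher in Dlx5 without overlap. B lineage markers summed to 81.7 to 205 CPM in Dlx5 and 215 and 391 in Fgfr3. Of these 6 genes, 4 were tested and 2 were called higher in Fgfr3, while *Cd79a* and *Cd79b* overlapped. The untested *Pax5* ran the other way, at 3.02 to 9.20 CPM in Dlx5 and 2.89 and 2.79 CPM in Fgfr3. Mural markers summed to 73.2 to 254 CPM in Dlx5 and 110 and 105 in Fgfr3, with 2 of 3 tested genes (*Acta2* and *Tagln*) called higher in Fgfr3. The other mural markers leaned the other way. *Rgs5*, at 228, 63.0 and 55.8 CPM in Dlx5 and 58.6 and 50.6 CPM in Fgfr3, was not called (log2 fold change -1.09). *Myh11* was called higher in Dlx5 with a CPM minimum of 1 (-3.04). Erythroid markers summed to 17800 to 36300 CPM in Dlx5 and 13900 and 20600 in Fgfr3, with 2 of 8 called higher in Dlx5. Endothelial markers summed to 22.1 to 44.0 CPM in Dlx5 and 33.2 and 44.4 in Fgfr3, with the 1 tested gene not called.

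The 2 Fgfr3 libraries differed in these markers, and some carriers differed with them. Replicate 3 over replicate 2 was 2.11 for the summed leukocyte markers and 2.46 for neutrophil markers. Chondrocyte markers stood at 0.127 and CAR stroma markers at 0.674. Between these lay B lineage (1.82), erythroid (1.49), macrophage (1.39), osteoblast (1.34), endothelial (1.34), osteoclast (0.998) and mural markers (0.952). The same ratio was 3.11 for *Slc16a3*, 2.61 for *Slc2a3* and 1.86 for *Slc16a6*, and 4.70 for the untested *Slc2a6*. It was 1.38 for *Slc38a5*, 1.27 for *Slc7a5* and 1.17 for *Slc7a7*, and 0.868 for *Slc38a4* and 0.865 for *Slc16a1*. Of the Dlx5-side genes, *Slc1a3* (0.448) and *Slc2a12* (0.452) were the lowest, while *Slc1a5* (0.995) and *Slc7a6* (1.02) were nearly equal between the 2 libraries. The part of these cells in the differences between the lineages was not tested.

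**Figure D4:**
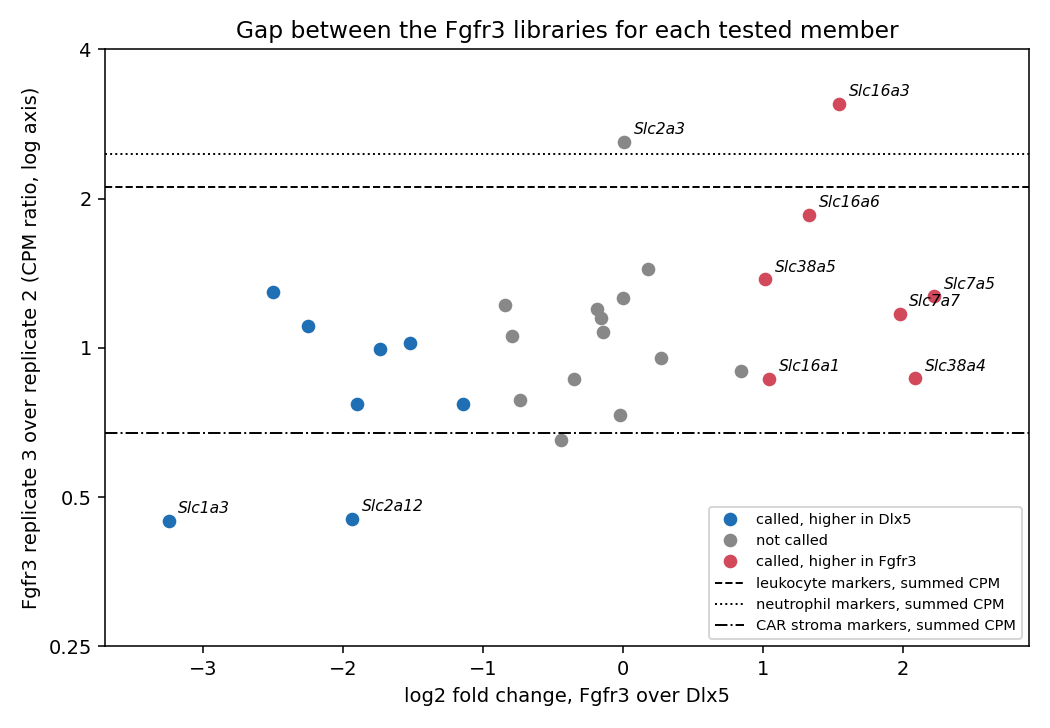
For each of 29 tested members, the level in Fgfr3 replicate 3 over that in replicate 2 (CPM ratio, log axis) is plotted against the log2 fold change of Fgfr3 over Dlx5, and horizontal lines give the same ratio for the summed CPM of leukocyte (2.11), neutrophil (2.46) and CAR stroma (0.674) markers. Slc16a3 (3.11) and Slc2a3 (2.61) lie above the neutrophil line, while Slc7a5, Slc7a7, Slc38a4 and Slc16a1 lie between 0.865 and 1.27.

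The calls were also read under the alternative fits. A fit without a Fgfr3 library leaves 1 library in that group, which is then assumed to vary like the Dlx5 libraries. On the Dlx5 side, the calls of *Slc1a3*, *Slc1a5*, *Slc2a12*, *Slc7a2*, *Slc7a6*, *Slc7a11* and *Slc38a6* held in every alternative in which the gene was tested. So did those of *Slc7a5*, *Slc7a7* and *Slc38a4* on the Fgfr3 side. *Slc16a7*, *Slc16a1*, *Slc16a3*, *Slc16a6* and *Slc38a5* each lost the call in at least 1. Of the calls that held, all but *Slc1a5* and *Slc7a6* passed the filter mainly through the group where they were high. Holding is thus weak support for them. *Slc7a7* and *Slc38a4* were tested without a Fgfr3 library only where the gene set was kept, and that set was chosen with all libraries.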

How the data were processed

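RNA-seq libraries were made from amplified cDNA of sorted cells. The authors aligned reads to mm10 and deposited raw read counts per gene, not normalized; their processing notes name TopHat2 2.0.13, Bowtie2 2.2.1, HTSeq, Cufflinks, Cuffdiff and DESeq2 without roles, and the strand setting is not given in the sources used here. The deposited depth-normalized and rlog values were not used. Libraries were grouped by their labels. Nothing in the labels says that libraries were separate litters, so p-values measure the spread between these libraries. No pair of the 10 library pairs differed by less than sampling noise.

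Symbols, gene types and coordinates came from GENCODE M21 on GRCm38, in which 29965 identifiers matched and 81 did not, reporters included. Protein-coding genes and reporter sequences with CPM of at least 10 (on total counts) in at least 2 libraries entered an edgeR 4.0.16 fit (R 4.3.3, TMM, quasi-likelihood test, no covariates, all 5 libraries) and adjusted by Benjamini-Hochberg. Calls needed an adjusted p under 0.05 and a log2 fold change beyond 1 in either direction. The small number of libraries set the precision. The fit was tested on simulated data. Members, lists and the rule for named genes (all called members, a fixed set of carriers, and up to 5 called related genes per list and direction) were chosen with earlier results of these data known. 1 called member stays in the counts and is not reported here by name or value. Levels between genes were compared per kb of merged exon. The alternatives were other normalizations, filters, thresholds and tests (DESeq2 1.42.0 among them), all features, the replicate block, trends on GC content and transcript length, and leaving out each library. Leaving out a Fgfr3 library while keeping the gene set was added after seeing the data.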

Additional observations from a re-analysis of the deposited data

How the results depend on the processing

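The 9 members called higher in Dlx5 numbered 8 or more in every alternative. The 7 called higher in Fgfr3 fell to 3 with a test against a 2-fold change (glmTreat). That test also lowered the calls over all genes, to 659 on the Dlx5 side and 1011 on the Fgfr3 side. Without single Dlx5 libraries the 7 became 5 or 6, and the calls over all genes on that side were 1560 to 1680. Fewer of the 7 were called without either Fgfr3 library, where only 26 members passed the filter again, and also with the gene set kept. Without Fgfr3 replicate 3, the calls over all genes on that side fell too. Fits without a Fgfr3 library leave 1 library in that group, assumed to vary like the Dlx5 libraries. Related genes called higher in Dlx5 (11) numbered 7 with library size only, 4 with glmTreat and 18 with no fold threshold. Those higher in Fgfr3 (12) numbered 6 with glmTreat and 22 with no fold threshold. Over all genes, no fold threshold gave 2363 calls on the Dlx5 side and 2517 on the Fgfr3 side. Scaling by library size only moved the median of all genes to 0.22 and lowered the calls over all genes from 1318 to 1009 on the Dlx5 side and raised them from 1653 to 1985 on the Fgfr3 side. With the replicate block, 15 members were called, *Slc16a3* being lost; deviations of replicates 2 and 3 correlated by 0.13 and -0.05 between groups, and the libraries share only a number.

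*Slc2a3* turned negative with a CPM minimum of 1 (-0.018), no filter (-0.00075), the replicate block (-0.27) and without Fgfr3 replicate 3 (-0.79, and -0.85 with the gene set kept), without Dlx5 replicate 1 (-0.13) or Dlx5 replicate 2 (-0.032), and was highest, at 0.61, without Fgfr3 replicate 2. *Slc38a1* turned without Dlx5 replicate 3 (-0.0011) or Fgfr3 replicate 3 (-0.047, and -0.11 with the gene set kept), and leaving out single libraries otherwise gave up to 0.55. *Slc38a9* turned with library size only (0.19), all features (0.012), the GC trend (0.032), the length trend (0.60) and without Dlx5 replicate 2 (0.014) or Fgfr3 replicate 3 (0.25, and 0.19 with the gene set kept), the lowest values without single libraries being -0.19 and -0.26. The cause was not tested.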
